A study of Mus musculus with 9 samples.

Results

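The 3 arrays of cells captured from mouse dorsal root ganglia at embryonic day 13.5 (E13.5) were set against both other stages of a series of 9 arrays. For each gene, the E13.5 mean was contrasted with the average of the mean at embryonic day 8.5 (E8.5) and the mean at postnatal day 90 (P90), on log2(signal + 16). A gene was a peak where all 3 E13.5 arrays lay above all 6 other arrays, and a dip where all 3 lay below them. Of 13748 genes tested, 688 were peaks and 240 were dips.

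The study collected neural crest cells and their derivatives by laser capture microdissection to follow DNA repair genes through mouse development. The E8.5 cells came from embryos whose neural tube was closing, the E13.5 cells from the dorsal root ganglion and the P90 cells from the medulla of the adult adrenal gland, with 3 biological replicates a stage and no treatment named. Strain, genotype, sex and the number of animals behind a capture are not given in the sources used here. Stage and tissue change together, so age and organ cannot be told apart. In captured tissue, fewer cells of a type and less RNA per cell cannot be told apart either.

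The dorsal root ganglion holds the cell bodies of sensory neurons for touch, temperature, pain and limb position, together with satellite glia and Schwann cells, all derived from the neural crest. In mid-gestation its neurons switch on lineage transcription factors, send axons to skin, muscle and spinal cord, and begin to depend on neurotrophic factors. Chromaffin cells of the adrenal medulla share the crest origin but secrete catecholamines into the blood.

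Median array signals were 38.3 to 48.2 and mean signals 173 to 327, and the small number of arrays limits precision throughout. E13.5 replicate 2 stood apart: its mean signal was 178, against 327 and 295 on the other E13.5 arrays, and its Actb control, which reads RNA integrity as the log2 excess of 3' over 5' signal, stood at 7, against 0.851 and 2.87. P90 replicate 1 stood apart too, with a signal of 633 for Pnmt, the enzyme that makes adrenaline, against 3749 and 3289 on the other P90 arrays. The Actb excess was also 4.82 on E8.5 replicate 1, against 2.05 and 2.39, and 4.09 on P90 replicate 2. The lowest mean signal, 173, was that of P90 replicate 3. E13.5 replicates 1 and 2 correlated at 0.877, below the 0.895 of E13.5 replicate 1 with P90 replicate 1. E13.5 replicate 3 correlated with them at 0.958 and 0.943.

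In limma's fit of all 9 arrays, 877 genes (6.38%) were called higher at E13.5 than the average of E8.5 and P90, and 337 (2.45%) were called lower, at an adjusted p under 0.05. The higher calls thus outnumbered the lower ones, while the median log2 difference over all genes tested was -0.01. A call tests the contrast with the average of both stages and can rest on 1 of them. Without E13.5 replicate 3 the counts were 299 higher and 98 lower, and without E13.5 replicate 1 the higher count was 558. The lower count was 158 without E8.5 replicate 2, 168 without E8.5 replicate 3 and 193 without P90 replicate 2. Without E13.5 replicate 2 the counts were 1188 higher and 261 lower.

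Peaks made up 5.0% of the genes tested and dips 1.75%. Of the peaks, 510 were among the higher calls, and of the dips, 111 were among the lower calls; the order of the arrays chose these genes, so the overlap is a description. Another 257 higher calls had no empty cell and were no peak: 184 of them overlapped P90 arrays but not E8.5 arrays, 72 overlapped E8.5 arrays but not P90 arrays, and 1 overlapped both. Among the 185 lower calls with no empty cell that were no dip, 117 overlapped only P90 arrays and 68 only E8.5 arrays. Peaks numbered 1753 without E13.5 replicate 2, against 966 without E13.5 replicate 1 and 724 without E13.5 replicate 3. Dips numbered 553, 485, 450 and 401 without E13.5 replicate 1, 2 or 3 or P90 replicate 3. With an array left out, the rule asks for fewer arrays to stand apart and so is easier to meet. These peak and dip counts are therefore not like for like with those of the full series. Other causes of the changes were not tested.

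The peaks were larger in size than the dips. The height of a peak, the smaller of its differences from the E8.5 mean and from the P90 mean, had a median of 1.23 on the log2 scale and a maximum of 5.17. The depth of a dip, measured the same way, had a median of -0.68 and went down to -3.07. A height of at least 2 was reached by 148 peaks and such a depth by 10 dips. Between the E13.5 arrays and the nearest other array, 127 peaks and 10 dips left a gap of at least 1 log2 unit. At the edge of the rule, 136 peaks lay within 0.1 log2 units inside it and 138 genes within 0.1 outside it, against 91 and 128 for dips. Of the peaks, 117 had fewer than 3 of the 6 other arrays above the filter signal of 26.1 and so were tested only through their E13.5 arrays. Such peaks named below include Cdk5r2, Cntn2, Cntnap4, Cntn4, Col8a2, Ebf2, Gng8, Kcnip2, Matn1, Phf24, Rab6b, S100b and Tlx3. Runx1, which was no peak, also passed the filter only with its E13.5 arrays. The E13.5 signals let these genes into the test, so their p-values are no independent support. Of the dips, 45 had no E13.5 array above it.

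**Figure D1:**
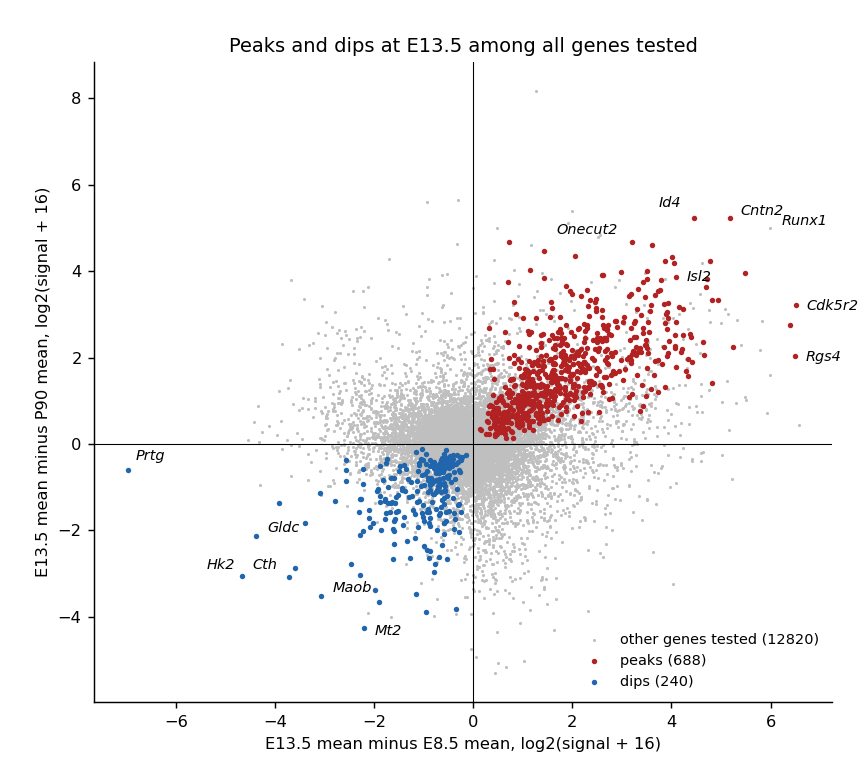
Difference of the E13.5 mean from the E8.5 mean (x axis) and from the P90 mean (y axis), both in log2(signal + 16), for 13748 genes, with the 688 peaks in red and the 240 dips in blue. Peaks lie in the upper right quadrant, with Cntn2 and Id4 far from both axes, and dips in the lower left, with Hk2 and Cth far from both axes.

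Other probe sets of the same genes, which sit on the same arrays and are no independent sample, mostly pointed the same way. Of 382 other probe sets of peak genes, 338 (88.5%) had a difference of the same sign and 116 (30.4%) were peaks themselves, against 3.84% of all 9460 other probe sets. Of 128 other probe sets of dip genes, 112 (87.5%) had the same sign and 25 (19.5%) were dips, against 2.27%.

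Transcription factors of sensory neurons stood high at E13.5. Of 29 tested members of that list, 15 were called higher and 2 lower, 9 were peaks, and the median log2 difference was 2.34. Isl2, a LIM homeodomain factor of postmitotic sensory and motor neurons, had signals of 989, 750 and 1086 at E13.5, against 32.8, 35.1 and 52.1 at E8.5 and 32.6, 48.2 and 72.2 at P90. Its E13.5 arrays lay close together and far above the 6 others, and the log2 difference was 3.98 (SE 0.28, limma adjusted p = 5.51e-05). Tlx3, a homeobox gene that favours the glutamatergic fate, had 411, 348 and 301 at E13.5 and at most 44.1 elsewhere, a difference of 3.28 (SE 0.26, limma adjusted p = 5.51e-05). Tlx3 was tested only through its E13.5 arrays. Hmx1, a homeobox gene of cranial and spinal sensory ganglia, had 288, 1081 and 1458 at E13.5, against 30.3 to 48.5 at E8.5 and 20.3 to 31.2 at P90. Ebf2, a helix-loop-helix factor of early neurons, had 171, 127 and 308 at E13.5 and at most 8.51 on any other array. Another Ebf2 probe set read 84.9 to 111 at E8.5 and 6.62 to 10.6 at P90, and was empty on all E13.5 arrays. The low E8.5 level of Ebf2 thus depends on the probe set. Onecut2 and Klf7, the latter a zinc-finger gene of developing neurons, were peaks with differences of 3.95 and 2.46.

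Runx1, a regulator of the nociceptor lineage, had the largest contrast of all genes tested but was no peak, because 1 of its E13.5 cells was empty. The other E13.5 arrays gave 893 and 1449, against 1.0 to 2.83 at E8.5 and 7.07 to 54.5 at P90, a log2 difference of 5.5 (SE 0.39, limma adjusted p = 5.51e-05, from 2 E13.5 arrays). A further Runx1 probe set gave 73.6, 161 and 68.8 at E13.5 and 3.87 to 13.3 elsewhere, whereas 1 other was empty on all 3 E13.5 arrays and the remaining ones showed no such separation. Isl1, the paralog of Isl2, peaked at 5141, 3153 and 5244, while P90 replicates 2 and 3 gave 1876 and 1420 and P90 replicate 1 gave 88.8. The 2 lower calls were Eya1, a cofactor of placode and ganglion development that was higher at P90 (236, 1138 and 918) than at E13.5 (40.3, 10.9 and 37.2), and Neurog2, a proneural gene at 300 to 1140 at E8.5 and at 3.37 to 59.4 at E13.5.

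Adhesion molecules of axons gave the highest peak. Cntn2, a cell surface protein that bundles growing sensory axons, had signals of 366, 1289 and 1789 at E13.5, against 9.58 to 12.2 at E8.5 and 8.77 to 11.1 at P90. Both other stages were at the same low level, and the log2 difference was 5.2 (SE 0.4, limma adjusted p = 5.51e-05). Cntn2 was tested only through its E13.5 arrays, so this p-value is no independent support. Of its other probe sets, 1 showed no such separation (11.5 to 16.1 at E13.5) and 2 were empty on all E13.5 arrays. Cntnap4, a contactin-associated protein of synapses, had 1400, 400 and 812 at E13.5 and at most 32.4 elsewhere. Ncan, a proteoglycan of the neural matrix, had 1425, 1145 and 1553 against 87.3 to 112 at E8.5 and 19.7 to 75.1 at P90.

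In the list of axon growth, guidance and adhesion, 20 of 53 tested members were called higher, 1 lower and 11 were peaks, with a median difference of 1.09. L1cam, which promotes axon extension, gave 4299, 3641 and 4050 at E13.5, with P90 at 254, 1790 and 1257 and E8.5 at 176 to 314. Dclk1, Cntn4 and Ncam2 were also peaks, with differences of 2.93, 3.06 and 3.2. Nrp1 and Alcam were called higher without being peaks, since P90 arrays overlapped the E13.5 ones: Alcam had 1944 to 4000 at E13.5 and 903 to 4090 at P90. Dpysl3, a collapsin response mediator, had 5500 and 4284 on the 2 E13.5 arrays with a value, against 106 to 422 on all other arrays. The lower call was Ntn1, a guidance cue of the floor plate, at 65.8 to 75.3 at E13.5 and 390 and 670 on 2 E8.5 arrays.

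**Figure D2:**
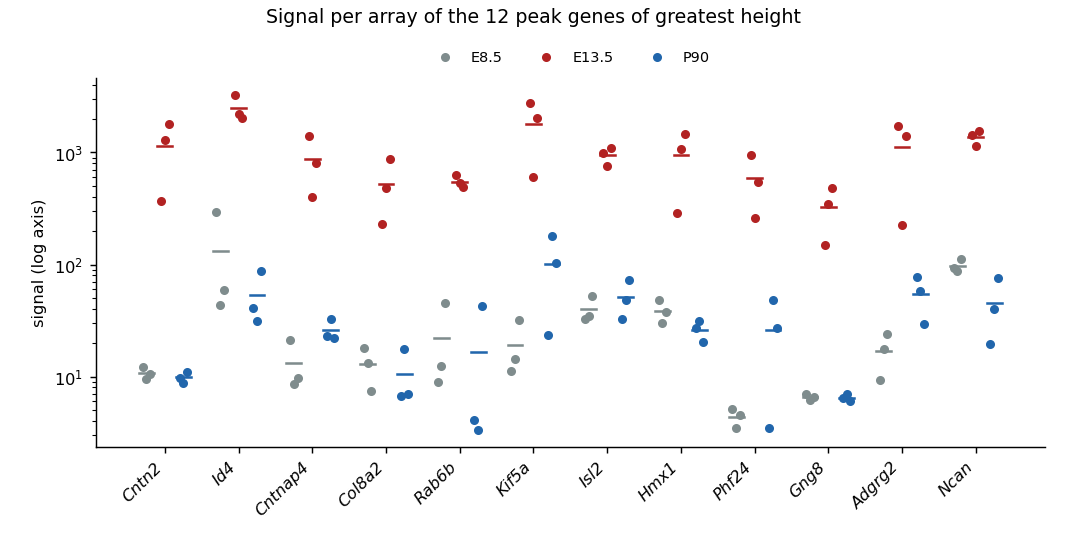
Signal per array (log axis) of the 12 called peak genes of greatest height, with each point 1 array and each bar the stage mean. The E13.5 points lie between 148 and 3257 and above every E8.5 and P90 point of the same gene.

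Motor proteins and microtubule genes were higher too. Of 25 tested cytoskeleton and transport genes, 13 were called higher, 0 lower and 9 were peaks, with a median difference of 2.15; 20 had an unadjusted p under 0.05, all higher. Kif5a, a kinesin of axonal transport, had 2790, 601 and 2030 at E13.5, against 11.2 to 32.0 at E8.5 and 23.6 to 180 at P90, a difference of 4.73 (SE 0.55, limma adjusted p = 0.000479). E13.5 replicate 2 gave the lowest of its E13.5 signals, as it did in 437 of the 688 peaks (63.5%) and in 61.7% of all genes with no empty cell. Cdk5r2, an activator of the neuronal kinase Cdk5, and Map6, a microtubule stabiliser, were peaks with differences of 4.87 and 3.67. Cdk5r2 was tested only through its E13.5 arrays, and from P90 alone it differed by 3.23 (limma adjusted p = 0.058). Tuba1a, an alpha tubulin with near-identical paralogs, was a shallow peak at 9865, 10160 and 10410, against 6815 to 8008 at E8.5. Without E13.5 replicate 2, 17 of 24 were called higher and 19 were peaks, under a peak rule that fewer arrays make easier to meet.

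Rab6b, a trafficking GTPase of the Golgi in neurons, was among the 12 highest peaks. Its signals were 625, 536 and 492 at E13.5, against 8.95, 12.4 and 45.1 at E8.5 and 4.06, 3.31 and 42.3 at P90, a difference of 4.16 (SE 0.39, limma adjusted p = 0.000125). Rab6b was tested only through its E13.5 arrays. A further probe set of the gene was empty on all 3 E13.5 arrays, with 41.3 to 87.4 elsewhere. Elavl3, an RNA-binding protein that marks postmitotic neurons, had 2787, 2776 and 2954 at E13.5, against 120 to 372 at E8.5 and 95.7 to 592 at P90, a difference of 3.55 (SE 0.53, limma adjusted p = 0.00185). In its list of neuronal RNA-binding proteins 6 of 17 tested members were called higher and 5 were peaks, with Rbfox1, Rbfox3, Celf2 and Celf5 the others.

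The promoters of Elavl3 and Rab6b are shown because each holds the E-box CAGCTG, the letters bound by many neuronal helix-loop-helix factors, in the 250 bases before the start annotated by RefSeq (GRCm38.p6). Both run 5′ to 3′ on the gene's strand, with the E-box in capitals; Elavl3 lies at chr9:22052024-22052273 on the minus strand and Rab6b at chr9:103111824-103112073 on the plus strand.
Elavl3: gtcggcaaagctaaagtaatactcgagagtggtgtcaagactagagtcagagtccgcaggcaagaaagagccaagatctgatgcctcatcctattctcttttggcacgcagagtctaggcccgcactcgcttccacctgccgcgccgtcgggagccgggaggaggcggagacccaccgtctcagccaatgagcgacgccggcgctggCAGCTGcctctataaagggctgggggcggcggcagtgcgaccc
Rab6b: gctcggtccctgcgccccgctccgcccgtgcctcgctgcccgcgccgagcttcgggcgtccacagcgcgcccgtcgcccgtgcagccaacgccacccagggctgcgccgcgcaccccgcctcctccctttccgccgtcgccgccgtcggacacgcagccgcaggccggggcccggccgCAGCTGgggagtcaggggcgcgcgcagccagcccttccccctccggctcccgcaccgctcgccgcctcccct
Searched on both strands, CAGCTG was in 20.3% of the 513 peak promoters with an entry, in 10.2% of the 206 dip promoters, in 14.5% of those of all genes tested and in 14.7% of all 27025. The homeodomain letters TAATTA were in 2.34% of peak promoters, 5.83% of dip promoters and 3.29% of those of all genes tested. These shares describe windows of equal length; the windows of Cntn2, Isl2, Id4 and Col8a2 hold no CAGCTG.

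Ion channels of sensory neurons included 13 higher calls and 0 lower calls among 29 tested (19 at an unadjusted p under 0.05, all higher), with 5 peaks and a median difference of 1.39. P2rx3, the ATP-gated channel of nociceptors, had 4795, 1910 and 3174 at E13.5, against 336 to 949 at E8.5 and 879 to 995 at P90. Cacna1h, a low-threshold calcium channel, had 371, 201 and 305 at E13.5, with 5.08 to 6.17 at E8.5 and 27.9 to 172 at P90. Both groups of E13.5 arrays cleared all others, with differences of 2.12 (SE 0.4, limma adjusted p = 0.00651) and 2.82 (SE 0.39, limma adjusted p = 0.00119). Kcnip2, a subunit of A-type potassium channels, and Kcnd1, which forms such channels, were chosen after their values were seen; Kcnip2 had 228, 206 and 372 against at most 11.5, and Kcnd1 had 2008, 548 and 1063 against at most 249. Scn3b and Scn7a, sodium channel genes with 1 empty E13.5 cell each, had differences of 4.1 and 4.34. Cacna2d1, the gabapentin target, was called higher but was no peak, with 463 to 1591 at E13.5 and 1348 to 2340 at P90.

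Among genes of synaptic vesicle release, some of the higher calls overlapped with P90. Of 29 tested, 11 were called higher, 0 lower and 8 were peaks, with a median difference of 1.56 and 21 at an unadjusted p under 0.05, all higher. Stx1a, a membrane SNARE, had 3836, 3460 and 3966 at E13.5 and at most 920 elsewhere, and Cplx1, a regulator of fast release, had 5419, 1479 and 2993 and at most 366. Each left a clear gap, with differences of 3.07 (SE 0.35, limma adjusted p = 0.000419) and 3.41 (SE 0.4, limma adjusted p = 0.000483). Syt1, the calcium sensor, and Rab3c, a vesicle GTPase, were no peaks: Rab3c had 564 to 1567 at E13.5 and 379 to 2385 at P90. Among neuropeptide and granule genes 3 of 14 were called higher, of which Adcyap1, the neuropeptide PACAP, was the peak at 432, 136 and 372 against at most 65.2. Gal and Vgf, also secreted through granules, overlapped with P90.

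Trophic factor ligands and receptors held 2 peaks. Of 12 tested neurotrophin and GDNF family genes, 2 were called higher, and both were peaks. Over all genes tested, 6.38% were called higher and 5.0% were peaks. In this list 3 members had a probe set empty on all E13.5 arrays, and 1 of these was not tested. Gfra3, the artemin co-receptor of nociceptors, had 1916, 697 and 1572 at E13.5, against 184 to 265 at E8.5 and at most 220 at P90, a difference of 2.78 (SE 0.39, limma adjusted p = 0.00128). Gfra1 had 192, 110 and 204 against at most 82.0, a difference of 1.02 (SE 0.25, limma adjusted p = 0.0287), and it lost its call on leaving out any array but E13.5 replicate 2 and P90 replicate 1. Ntrk2, the BDNF receptor, had 500 to 1545 at E13.5 and 207 to 1060 at P90 and did not pass (limma adjusted p = 0.14).

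Genes of G protein signalling were also among the highest peaks. Gng8, a G protein gamma subunit, had 148, 349 and 485 at E13.5 and only 6.11 to 7.03 on the 6 other arrays, a difference of 3.79 (SE 0.3, limma adjusted p = 5.51e-05). Gng8 was tested only through its E13.5 arrays, so this p-value is no independent support. Rgs4, which speeds up the shut-off of G protein alpha subunits, had 3766, 1081 and 2559 at E13.5, 7.29 to 9.92 at E8.5 and 435 to 674 at P90, a difference of 4.26 (SE 0.39, limma adjusted p = 9.75e-05). Of 17 regulators of G protein signalling tested, 6 were called higher and Rgs3, Rgs4 and Rgs10 were peaks. Adgrg2, an adhesion G protein-coupled receptor, had 1715, 224 and 1401 at E13.5 against at most 76.7. Chosen after their values were seen, the receptor genes Prokr1 and Ptgir had 314, 548 and 734 against at most 44.0, and 202, 197 and 361 against at most 30.8. Phf24, a brain-enriched zinc finger gene, was among the 12 highest peaks, at 956, 262 and 546 against at most 47.9.

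Id4, an inhibitor of helix-loop-helix factors, had the second greatest height. Its E13.5 signals were 3257, 2186 and 2041, against 294, 43.4 and 58.9 at E8.5 and 31.5 to 88.4 at P90, and the log2 difference was 4.84 (SE 0.5, limma adjusted p = 0.000229). All 3 E13.5 arrays thus lay far above the highest other array, E8.5 replicate 1. Further Id4 probe sets were empty on all E13.5 arrays, with 25.7 to 51.8 elsewhere. Beside Id4, 2 other BMP and TGF-beta genes of 26 tested were called higher, Tgfb2 and Bambi. In the Notch pathway the call was Heyl, a Notch target, at 198, 188 and 275 against 34.1 to 113, and the other 18 tested members had none. The share called higher over all genes tested was 6.38%.

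Glial genes were higher as well. Of 23 tested members of the glial list, 10 were called higher, 0 lower (15 at an unadjusted p under 0.05, all higher) and 7 were peaks, with a median difference of 1.35. Sox10, the crest and glial master regulator, had 394, 481 and 543 at E13.5, 232 to 315 at E8.5 and 72.4 to 137 at P90, so it was a shallow peak over E8.5 with a difference of 1.35 (SE 0.29, limma adjusted p = 0.0139). S100b, a calcium-binding protein of glia, had 455, 164 and 145 against at most 37.7, and Mbp, a myelin protein, had 3586, 636 and 1028 against at most 259. The Mbp probe set is of a kind whose probes can match several transcripts; without that kind its difference was 0.31 and its call was lost. Dhh, a Schwann cell signal, and Cdh19, a cadherin of Schwann cell precursors, were also peaks. The summed signal of the 26 glial genes with no empty cell was 11174 to 27488 at E13.5, 9032 to 11643 at E8.5 and 8052 to 20208 at P90, so P90 replicate 1 overlapped the ganglion.

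Connective tissue genes were also higher at E13.5. Of 25 tested mesenchyme and meninges markers, 9 were called higher, 1 lower and 4 were peaks, with a median difference of 0.94. Col1a2 had 7477, 2559 and 4261 at E13.5, against 690 to 1176 at E8.5 and 439 to 1323 at P90, and Col6a2 had 1315, 835 and 980 against at most 251. Col8a2, a collagen of basement membranes outside this list, had one of the greatest heights, at 229, 486 and 867 against at most 18.1, a difference of 4.13 (SE 0.35, limma adjusted p = 6.39e-05). Col8a2 was tested only through its E13.5 arrays. The cartilage matrix genes Matn1 and Acan, chosen after their values were seen, had 203, 111 and 375 against at most 7.03, and 220, 191 and 266 against at most 31.5. The summed signal of 23 mesenchyme markers was 12415 to 39535 at E13.5, 13305 to 16025 at E8.5 and 9000 to 21999 at P90, lowest of the E13.5 arrays on replicate 2. The part of such cells in the peaks was not tested.

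Marker lists of other cell types were short and held at most 1 peak each on the full series. Over all genes tested, 5.0% were peaks, 6.38% higher calls and 2.45% lower calls. Macrophage markers had 0 higher and 3 lower calls among 16 tested, with 4 at an unadjusted p under 0.05, and their summed signal over 14 genes was 3320 to 3618 at E13.5, 1780 to 2459 at E8.5 and 5564 to 11449 at P90. Endothelium had 1 higher call of 20, Cdh5, which was lost in 11 of 22 alternatives, but 4 higher calls and 3 peaks without P90 replicate 1. Its summed signals were 2849 to 4686 at E13.5, against 1294 to 2645 at E8.5 and 2515 to 7816 at P90. Red cell genes had 2 higher calls of 9 tested, 1 of them Hbb-y, an embryonic globin. Hbb-y had 7668 and 7758 at E13.5, 1800 to 5537 at E8.5 and 2.59 to 35.5 at P90. Its call was lost without probe sets that can match several transcripts and with only complete genes. Summed signals of this list were 2723 to 5160 at E13.5, 3127 to 8386 at E8.5 and 782 to 1875 at P90. As for the other lists, sums take only probe sets with no empty cell, here from 9 of 17 listed genes. They leave out the Hbb-y probe set above. Muscle markers had 2 higher calls of 16 (summed 2454 to 5454 at E13.5, 2606 to 3407 at E8.5, 1681 to 3194 at P90), and epithelium had 3 lower calls of 16 (1660 to 1975, 2475 to 5132 and 2772 to 3435). Adrenal cortex markers, with 1 lower call of 7, summed to 468 to 1793 at E13.5, 232 to 282 at E8.5 and 4492 to 8595 at P90. That sum covers only 5 of 17 listed genes. All analysed probe sets of Star, Cyp11b1 and Hsd3b1 were empty on every P90 array, so these genes were neither tested nor summed. Probe sets of Cyp11a1 and Cyp21a1 were empty there too, though not all of them. The part of these cell types in the differences was not tested.

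**Figure D3:**
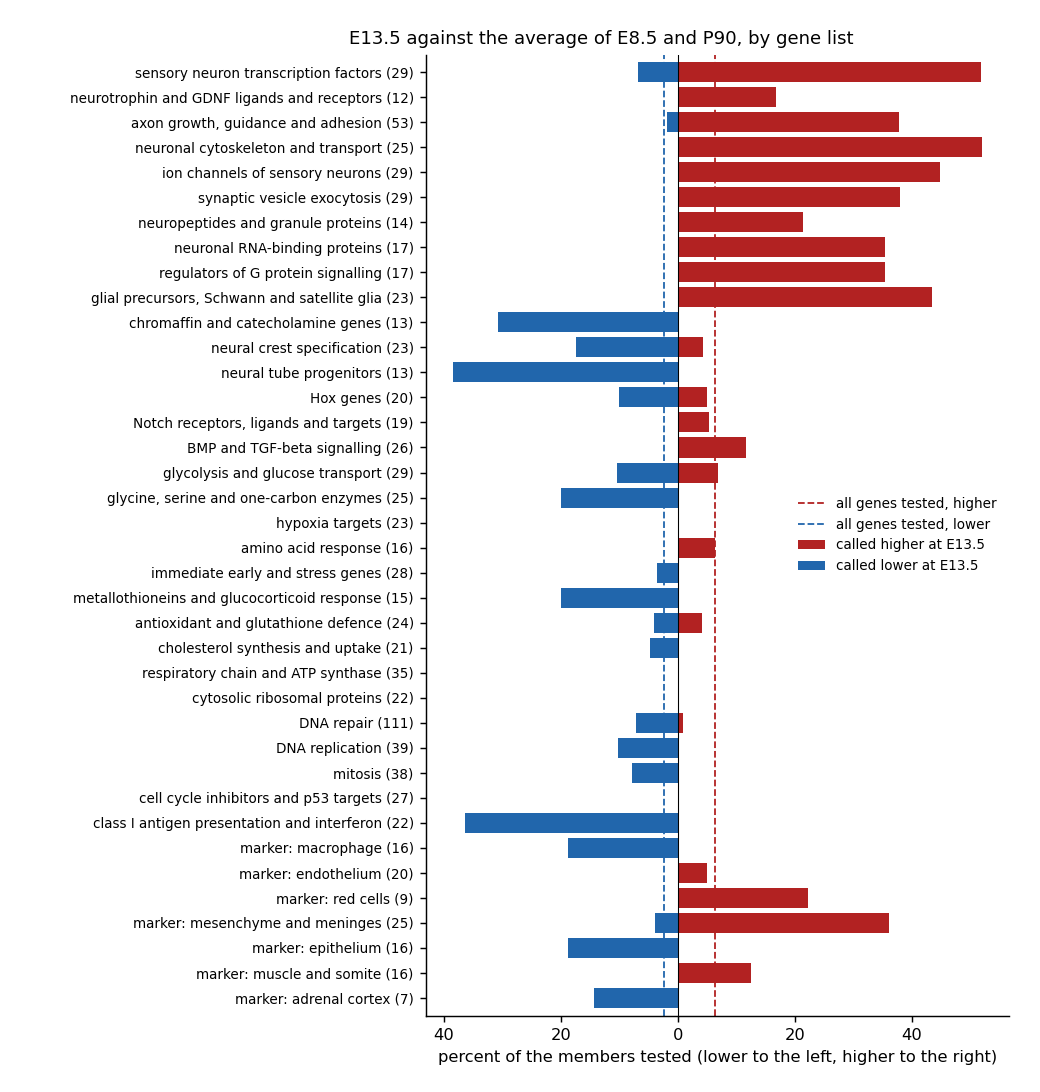
Percent of tested members of each of 38 gene lists called higher (red, to the right) or lower (blue, to the left) at E13.5 by limma, with the number tested in brackets and dashed lines at the 6.38% and 2.45% over all genes tested. Sensory neuron transcription factors, neuronal cytoskeleton, ion channels and glia extend furthest to the right; neural tube progenitors, class I antigen presentation and interferon, and chromaffin genes extend furthest to the left.

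Among the 12 called dips of greatest depth, with Riken and predicted genes passed over, Hk2, Gldc, Cth, Grhpr, Prps2 and Maob encode metabolic enzymes. Hk2, a hexokinase that traps glucose in the cell, had 207, 75.8 and 116 at E13.5, against 2281, 5024 and 3755 at E8.5 and 2787, 836 and 626 at P90, a log2 difference of -3.86 (SE 0.5, limma adjusted p = 0.000802). All E13.5 arrays lay far below the 6 others. Its paralog Hk1, the hexokinase typical of neurons, was a peak at 2762, 1366 and 2097, against 397 to 558 at E8.5 and 710 to 1249 at P90. The difference was 1.58 (SE 0.34, limma adjusted p = 0.0126), and Hk1 lost its call without E13.5 replicate 1 or 3. From P90 alone Hk1 differed by 1.08 (limma adjusted p = 0.119). Elsewhere in glycolysis and glucose transport, 24 of 29 tested genes had no call; Pfkl and Slc2a1 were lower calls that overlapped P90, and Ldhb was a higher call that overlapped E8.5. The hypoxia target list had 0 calls among 23 tested by limma, with 5 at an unadjusted p under 0.05 and 1 peak; without E13.5 replicate 2 it had 3 higher calls, 1 lower call and 4 peaks.

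Glycine and sulphur amino acid enzymes contributed further dips. Cth, which makes cysteine from cystathionine, had 11.3, 14.2 and 10.7 at E13.5, against 255, 460 and 375 at E8.5 and 204, 301 and 170 at P90, a difference of -3.4 (SE 0.28, limma adjusted p = 5.65e-05). Its gap to the nearest other array, 2.63 log2 units, was the widest among dips. Gldc, the glycine-cleaving decarboxylase, had 10.1, 12.6 and 3.85 at E13.5 and 392, 515 and 602 at E8.5, with P90 at 13.0, 220 and 165. P90 replicate 1 nearly touched the E13.5 arrays, and the difference was -3.26 (SE 0.54, limma adjusted p = 0.00328) with that array and -3.73 without it. Of 25 tested genes of glycine, serine and one-carbon metabolism, 5 were called lower and 0 higher (9 at an unadjusted p under 0.05, all lower), 3 were dips and the median difference was -0.5; the third dip was Mtrr, a methionine synthase reductase, and Shmt2 and Mthfd1 were lower calls that overlapped P90. From P90 alone Mtrr differed by -0.49 (limma adjusted p = 0.382). Grhpr, a glyoxylate reductase, was a dip at 119, 79.0 and 74.7 against 433 to 864 at E8.5 and 400 to 1436 at P90. Prodh, a proline oxidase chosen after its values were seen, had 53.3, 56.4 and 51.1 against at least 134.

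Maob and Ddc, which act on amines, were dips. Maob, which breaks amines down, had 44.9, 7.71 and 22.5 at E13.5, against 133, 406 and 503 at E8.5 and 107, 889 and 733 at P90, a difference of -3.29 (SE 0.63, limma adjusted p = 0.00692) that lost its call without E13.5 replicate 3. Ddc, the decarboxylase that makes dopamine, was the dip of the chromaffin list at 158, 83.5 and 47.3, against 162 to 195 at E8.5 and 564 to 2600 at P90. Its gap to the nearest other array was only 0.03 log2 units. From E8.5 alone Ddc differed by -0.95 (limma adjusted p = 0.318), and from P90 alone by -3.9 (limma adjusted p = 0.0014). Of 13 tested chromaffin genes 4 were called lower and 0 higher (7 at an unadjusted p under 0.05, 1 of them higher), with Gata2, Pnmt and Gch1 lower through P90 alone. Th, the first enzyme of catecholamine synthesis, was at 562 to 1239 in the ganglion, between 111 to 127 at E8.5 and 4441 and 4437 on the 2 P90 arrays with a value, and had no call.

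Metallothioneins and the transcription factor Zbtb16 followed the same shape. Mt2, a metal-binding protein induced by zinc and glucocorticoids, had 140, 221 and 120 at E13.5, against 323, 1297 and 1097 at E8.5 and 2897, 3699 and 3237 at P90, a difference of -3.23 (SE 0.44, limma adjusted p = 0.00106). Mt1, its close paralog, was lower by the test but no dip, since E13.5 replicate 2 at 387 exceeded E8.5 replicate 1 at 308, and without probe sets that can match several transcripts its difference was -0.52 and its call was lost. Zbtb16, a zinc finger gene that glucocorticoids induce, had 40.7, 180 and 123 at E13.5, against 1246 to 1481 at E8.5 and 352 to 1636 at P90. With Mt1 and Mt2, it made 3 lower calls among 15 tested genes of that list.

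The promoters of Hk2 and Mt2 are shown because each gene is a deep dip and a factor class is known for it: the letters ACGTG are the core that hypoxia-inducible factors bind, and TGCACNC or TGCGCNC is the metal response element. Both windows are the 250 bases before the RefSeq start (GRCm38.p6), 5′ to 3′ on the gene's strand; capitals mark ACGTG or its reverse complement in Hk2 (chr6:82774455-82774704, minus strand) and the metal response element on either strand in Mt2 (chr8:94172368-94172617, plus strand).
Hk2: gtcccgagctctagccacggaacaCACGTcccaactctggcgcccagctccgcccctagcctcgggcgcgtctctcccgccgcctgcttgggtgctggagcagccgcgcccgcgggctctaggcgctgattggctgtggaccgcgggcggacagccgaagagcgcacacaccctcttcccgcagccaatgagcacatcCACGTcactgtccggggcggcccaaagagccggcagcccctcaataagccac
Mt2: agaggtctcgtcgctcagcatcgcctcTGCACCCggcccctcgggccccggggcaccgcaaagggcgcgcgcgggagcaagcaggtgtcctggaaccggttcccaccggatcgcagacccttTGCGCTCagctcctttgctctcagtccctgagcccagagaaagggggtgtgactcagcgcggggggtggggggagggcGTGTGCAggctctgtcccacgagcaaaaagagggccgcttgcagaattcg
Hk2 holds 2 matches and Mt2 holds 3. In dip promoters ACGTG was found in 25.2% and the metal response element in 28.2%, against 24.3% and 33.4% over all genes tested and 21.8% and 37.4% over peaks. Over all 27025 promoters the shares were 18.5% and 23.8%.

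Genes of class I antigen presentation and interferon included several lower calls. Of 22 tested, 8 were called lower and 0 higher, with 13 at an unadjusted p under 0.05, all lower; 3 were dips and the median difference was -1.02. H2-K1, a class I heavy chain with close paralogs that its probes may share, had 231, 87.5 and 85.3 at E13.5, against 588 to 771 at E8.5 and 530 to 3631 at P90, a difference of -2.66 (SE 0.56, limma adjusted p = 0.0122), lost without E13.5 replicate 3. Tap1, a peptide transporter, had 15.8, 12.2 and 14.5, against 26.5 to 33.2 at E8.5 and 78.5 to 106 at P90, and Psmb9, an immunoproteasome subunit, had 15.7 to 18.7 against 23.8 to 29.7 at E8.5. The E8.5 signals of both lie near the filter signal of 26.1. The differences of Tap1 and Psmb9 from E8.5 alone were -0.58 and -0.38 (limma adjusted p = 0.0849 and 0.313). The other lower calls, such as Tap2, Psmb8 and the interferon-induced Gbp2 and Ifit3, rested on P90 alone. Without P90 replicate 1, 5 of 18 tested were called lower.

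**Figure D4:**
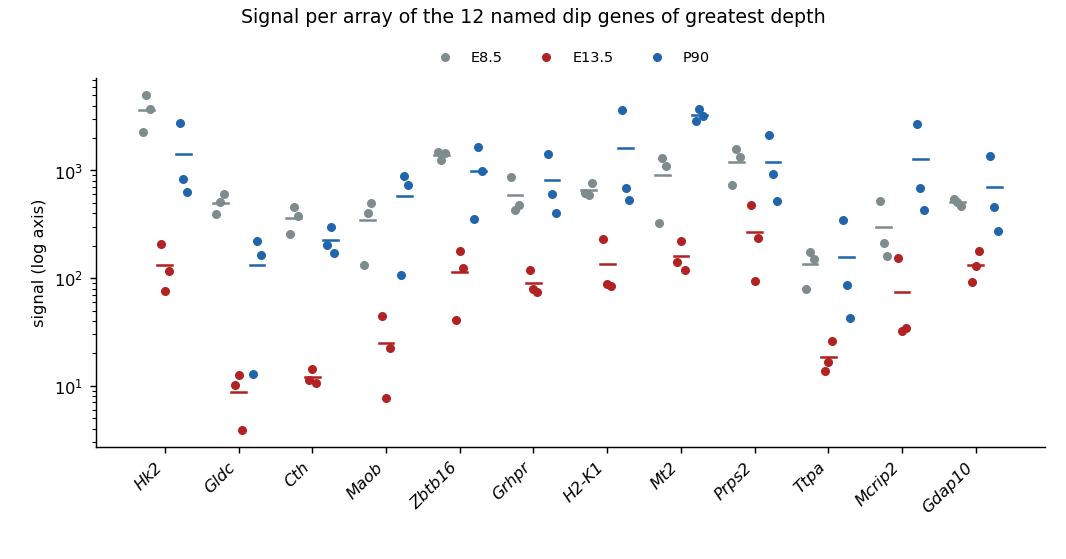
Signal per array (log axis) of the 12 called dip genes of greatest depth (Riken and predicted genes passed over), with each point 1 array and each bar the stage mean. The E13.5 points lie below every other point of the same gene, by the widest margin in Cth and barely in Gldc, Prps2 and Mcrip2.

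Prps2, Ttpa, Mcrip2 and Gdap10, also among the 12 dips named, had wide P90 spreads. Prps2, a nucleotide synthesis enzyme, had 478, 94.6 and 236 at E13.5 against 736 to 1568 at E8.5 and 518 to 2157 at P90. Ttpa, the vitamin E transfer protein, had 13.6 to 25.8 against 43.0 to 346 on the other 6 arrays. Mcrip2 had 154, 32.6 and 34.4 against 160 to 525 at E8.5 and 428 to 2681 at P90, and Gdap10 had at most 178 against 273 to 1364. Their limma adjusted p-values were 0.0272, 0.0221, 0.0153 and 0.0204, and each lost its call without E13.5 replicate 3. The Riken gene 2010204K13Rik, passed over by the rule, was a called dip with a depth of -1.98, at 154, 80.7 and 125 against 402 to 669 at E8.5 and 1224 to 1446 at P90. P2rx3, Dpysl3, Ddc, Gpx3 and Paxx lost theirs without that array too, Rgs10 and Scn7a without E13.5 replicate 1 or 3, Hbb-y without E13.5 replicate 2 and Eya1 without E8.5 replicate 1 or 3.

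Several genes of the early neural tube and crest, such as Wnt1 and Tfap2c, were high at E8.5 and low at both later stages, so they were lower calls without being dips. Of 13 neural tube progenitor genes tested, 5 were called lower and 1, Prtg, was a dip; this adhesion receptor of the early neural tube had 3206 to 4029 at E8.5, 8.99 to 14.1 at E13.5 and at most 38.3 at P90, and its log2 difference from P90 was -0.61. In the crest list 4 of 23 were called lower, 1 higher and 2 were dips; Msx2, a border homeobox gene, was a dip at 46.1 to 78.0, against 170 to 193 at E8.5 and 87.5 to 116 at P90. From P90 alone Msx2 differed by -0.59 (limma adjusted p = 0.248). The higher call of the crest list was Zic1, which was at 726 to 1949 at E13.5 but higher still at E8.5. Of 20 Hox genes tested 1 was called higher (Hoxa9) and 2 lower (Hoxb2 and Hoxb9), against 6.38% and 2.45% of all genes tested. Hoxb9 lost its call in 12 of 21 alternatives. The lower call of Rab27a, a vesicle GTPase, rested on P90 alone (1184 and 1068) and changed sign with the probe set.

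DNA repair was the subject of the study. Of 111 tested repair genes 8 were called lower, 1 higher, 1 was a peak and 0 were dips, with a median difference of -0.27. The shares over all genes tested were 2.45% lower, 6.38% higher, 5.0% peaks and 1.75% dips. The peak was Paxx, an end-joining factor, at 86.8, 81.6 and 88.8, against 14.2 to 28.9 at E8.5 and 47.7 to 66.7 at P90, a difference of 0.97 (SE 0.21, limma adjusted p = 0.0138). From P90 alone Paxx differed by 0.55 (limma adjusted p = 0.223), and from E8.5 alone by 1.4 (limma adjusted p = 0.00235). The lower calls were Gen1, Exo1, Chek1, Brca1, Rad18, Eme1, Xrcc3 and Mre11a, and in each the E13.5 arrays lay near P90 and far below E8.5: Exo1, a resection nuclease, had 848 to 1183 at E8.5, 64.1 to 90.8 at E13.5 and 28.6 to 39.9 at P90. The peaks and dips of this list varied with the setting: there were 5 peaks and 1 dip without E13.5 replicate 2, 2 peaks and 3 dips after quantile normalization, and 7 peaks and 5 dips with 2 arrays a stage. DNA replication (4 lower of 39) and mitosis (3 lower of 38) had no peak and no dip on all 9 arrays.

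Housekeeping lists gave few or no calls by limma on all 9 arrays. Among 22 cytosolic ribosomal protein genes 0 were called and 0 had an unadjusted p under 0.05. Among 35 respiratory chain genes 0 were called, with 1 at an unadjusted p under 0.05 and 1 peak, or 8 peaks without E13.5 replicate 2. Among 27 cell cycle inhibitors and p53 targets 0 were called, with 7 at an unadjusted p under 0.05 and 2 dips, Gadd45a and Sesn2. That list had 4 higher calls and 6 peaks among 25 tested without E13.5 replicate 2, and 2 higher calls and 2 peaks without P90 replicate 1. Cholesterol synthesis had 1 lower call of 21 and immediate early genes 1 of 28, against 2.45% of all genes tested. In antioxidant defence, Gpx7, a peroxidase of the endoplasmic reticulum, was a peak at 510, 329 and 502 against at most 145, and Gpx3, a secreted one, a dip at 330 to 350 against at least 490.

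The arrays that stood apart moved the counts of many lists. Without E13.5 replicate 2, the lists of neurons had more peaks: 22 of 52 axon genes, 11 of 27 ion channels, 14 of 26 synaptic vesicle genes, 8 of 17 RNA-binding proteins, 5 of 16 regulators of G protein signalling and 3 of 14 neuropeptide genes. Their higher calls were then 17, 14, 13, 8, 7 and 5 in the same order. Over all 13391 genes then tested there were 1753 peaks, against 688 of 13748 with the array. With the array left out the peak and dip rule is easier to meet, so these counts are not like for like. Mesenchyme markers had 8 peaks among 23 tested, BMP and TGF-beta genes 6 higher calls and 5 peaks among 25, Notch genes 2 higher calls, 4 peaks and 1 dip among 19, and glycolysis genes 4 higher calls, 5 peaks and 2 dips among 29. Mitosis had 3 higher calls, DNA replication 1 dip, muscle markers 3 peaks and 2 dips, and red cell genes 0 calls of 8 by limma. Glycine and one-carbon enzymes had 3 lower calls and 6 dips among 25, and crest genes 2 higher calls and 4 dips among 23. Without P90 replicate 1, chromaffin genes had 6 lower calls and 1 higher call among 13, neuropeptide genes 5 higher calls and 1 lower call, and axon genes 24 higher calls and 2 lower calls. Other list counts that moved by more than 1.5 times without either array did so by at most 2 genes.

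Several genes that define sensory neurons had a probe set with no value at E13.5. Of 405909 cells, each 1 probe set on 1 array, 8048 (1.98%) were empty, and 206 probe sets were empty on all 3 E13.5 arrays and on no other, against 46 for E8.5 and 80 for P90. These 206 belonged to 178 genes, 81 of which had no tested probe set, and included Tubb3, Nefl, Nefm, Dcx, Stmn2, Gap43, Elavl4, Avil, Pou4f1, Scn9a, Scn10a and Trpv1 among neuronal genes, Fabp7 of glia and Col1a1 and Col3a1 of connective tissue. A second probe set of Pou4f1, a factor of nearly all sensory neurons, was empty on 1 E13.5 array and read 242 and 525 on the others, against 5.27 to 25.7 elsewhere. The Pou4f1 probe set empty on all 3 E13.5 arrays read 531, 181 and 112 at E8.5 and 30.6 to 47.3 at P90. Peak genes named above that also have a probe set empty on all 3 E13.5 arrays include Cntn2, Rab6b, Ebf2, Id4, Klf7, Isl1, Dclk1, Rbfox1, Adcyap1, Adgrg2 and Mbp. Where 2 of the E13.5 cells were empty, the remaining E13.5 value lay above all 6 other arrays in 88 of 169 probe sets (52.1%) and below them in 7 (4.14%). An excess above was also found at E8.5, with 24 of 65 above (36.9%) and 3 below (4.62%), and at P90, with 50 of 112 above (44.6%) and 2 below (1.79%). Across the 8 neuronal lists, 208 of 275 genes were tested, with 83 called higher, 3 lower, 50 peaks and 0 dips, and 45 of the 275 had a probe set empty on all E13.5 arrays, of which 20 were not tested. Why cells are empty is not given in the sources used here. The counts of neuronal peaks leave out those 20 genes, while the rest of the 45 were tested through another probe set.

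**Figure D5:**
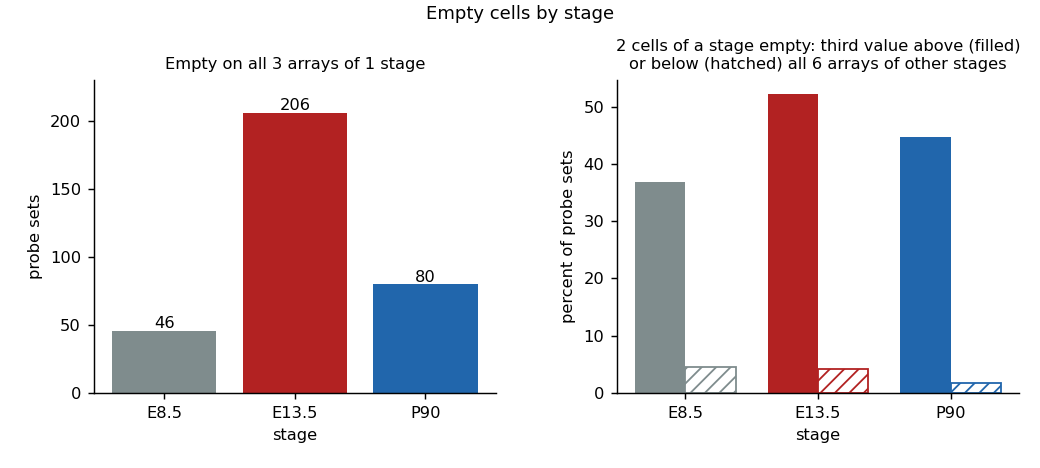
Left, number of probe sets with 1 gene symbol that were empty on all 3 arrays of 1 stage and on no other array. Right, for probe sets with 2 empty cells in a stage, the percent whose remaining value lay above (filled) or below (hatched) all 6 arrays of the other stages; these were 52.1% and 4.14% at E13.5, 36.9% and 4.62% at E8.5 and 44.6% and 1.79% at P90.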

How the data were processed

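RNA of laser-captured cells was measured on 9 mouse expression arrays, 3 a stage. A PicoPure kit gave the RNA and cRNA carried biotin, per the labels' protocols. The deposited table holds 1 linear intensity (signal) per probe set and array, with a lowest value of 1. The submitters' processing notes name MAS5, GCOS, RMA and GCRMA; which of them made the table, and its scaling, are not given in the sources used here. Of 45101 probe sets, 34945 had 1 gene symbol and were analysed; another 932 carried several symbols and 9160 none.

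Signals were taken as log2(signal + 16) with no scaling between arrays, which understates the differences of dim genes. A probe set was kept where at least 3 arrays exceeded a signal of 26.1, the 40th percentile over the table, and each stage had at least 2 values, which left 24013. The probe set with the largest mean stood for its gene (13748 of 18193 genes), and 12756 genes had no empty cell. In limma 3.58.1 (R 4.3.3) 1 fit of all 9 arrays (6 residual degrees of freedom, eBayes with a variance trend, two-sided) gave the contrast, with Benjamini-Hochberg adjustment over all genes tested and calls at an adjusted p under 0.05. Peaks, dips and lists are counts with no test. Tested on simulated data (200 of 13748 genes changed), it called 12% of those shifted by 1 log2 unit and 67% of those shifted by 2, with 3 false calls.

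The members, the 38 gene lists and the rule for named genes were chosen with earlier results of these data known. Named genes were Runx1, Cntn2, Hk2 and Gldc, the 12 highest called peaks and 12 deepest called dips with no empty cell (Riken, predicted and unnamed genes passed over), up to 3 called peaks and 3 called dips per list, and the 5 largest called differences in each direction outside the peaks and dips; genes beyond these illustrate list counts or are marked as picked with values in view. The settings tried were quantile normalization, a pseudocount of 1 or 64, other filters, other choices of probe set, complete genes only, other variance models, a replicate block, array weights, a wider gap and leaving out each array. A setting with 2 arrays a stage, which drops per stage the array of largest Actb excess, was added after seeing the data. Promoter sequences are those of RefSeq (GRCm38.p6); 513 of 688 peaks and 206 of 240 dips had an entry.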

Additional observations from a re-analysis of the deposited data

How the results depend on the processing

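Of 76 named genes, 48 kept their call under every alternative in which they were tested, 27 lost it under at least 1 and 1 changed sign. Most losses, 23 genes, came without E13.5 replicate 3; without E13.5 replicate 2 it was 5 and without P90 replicate 1 it was 0. Rab27a had a log2 difference of -2.43, but 0.14 with only complete genes and 0.12 with 2 arrays a stage; leaving out 1 array gave -2.5 to 0.24, with 0.22 without P90 replicate 2 and 0.06 without P90 replicate 3. Another probe set stood for it where the sign changed.

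Leaving out 1 array at a time gave 299 to 1188 higher calls, 98 to 388 lower calls, 708 to 1753 peaks and 264 to 553 dips, against 877, 337, 688 and 240. The peak and dip rule is easier to meet with fewer arrays, so its counts are not like for like. Quantile normalization gave 557 lower calls and 363 dips, and testing every probe set gave 1051 peaks and 455 dips among more features. Gene-by-gene array weights gave 3827 higher and 2142 lower calls; the cause was not tested. With 2 arrays a stage there were 99 lower calls, 2304 peaks and 651 dips, where the rule is again easier to meet. Other causes were not tested. A gap of at least 1 log2 unit left 127 peaks and 10 dips. Of the 877 higher calls, 838 were also called after quantile normalization and 293 without E13.5 replicate 3. The other alternatives stayed within 1.5 times these counts.

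The labels give no pairing by replicate number. Deviations from the stage means correlated at -0.367 to 0.385 for same-numbered arrays and at -0.378 to 0.433 for arrays of different numbers. Deviations within 3 arrays constrain each other, so these values do not settle whether samples are paired. With the replicate number as a block, 825 genes were called higher and 305 lower, and Hoxb9, Mtrr and Cdh5 lost their calls. Dim signals limit the smallest dips: 45 of 240 had no E13.5 array above the filter signal of 26.1.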
